A study of Mus musculus with 2 samples.

Results

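Prdm1, Bcl6 and Bach2 encode the transcriptional repressors Blimp-1, BCL6 and BACH2, and these 3 genes, taken by symbol from 32285 in the feature tables, are described here across 5 classes of sorted intestinal lymphocytes. The members were selected on their CPM and share of cells in these same libraries, so those values are descriptions. The small intestine of Il23r-eGFP mice, whose reporter makes cells with an active IL-23 receptor gene green, was freed of Peyer's patches and epithelium, and live eGFP-positive leukocytes were sorted for droplet sequencing (10x Genomics). The design has 1 unstimulated library and 1 library of cells treated with recombinant mouse IL-23 over 2 hours after the sort, both of the same genotype. The labels give neither the number nor the age of the mice, nor how long the unstimulated cells were held, and the same protocol, with the IL-23 step in it, is given for each sample, so the groups rest on the treatment labels alone. With 1 library per group no difference was tested, and every interval is a 95% interval that covers counting error only.

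Blimp-1 is a zinc finger repressor best known for driving B cells into plasma cells, and in T cells it shapes effector and regulatory states. BCL6, another zinc finger repressor, holds the germinal centre and follicular helper programs, and it and Blimp-1 repress each other. BACH2 is a basic leucine zipper repressor that pairs with small Maf proteins, competes with AP-1 factors for their sites and represses Prdm1 in lymphocytes.

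UMIs (unique molecular identifiers) stand for captured RNA molecules. Filters of 500 or more genes and no more than 10% of UMIs from mitochondrial genes left 10790 unstimulated cells (58148889 UMIs, median 4928 per cell) and 9251 stimulated cells (61359895 UMIs, median 6087). The share of mitochondrial UMIs was 2.64% and 3.25%. Cells with no UMI of the CD3 chain genes Cd3e, Cd3d and Cd3g are called CD3-negative, and they numbered 10075 and 8583. Of these, 1100 and 1317 held an Ncr1 UMI (the receptor NKp46 of 1 subset of group 3 innate lymphoid cells, ILC3s), 1583 and 1523 held a Ccr6 UMI (the chemokine receptor of the lymphoid tissue inducer-like subset), and 7440 and 5802 held neither. T cells were taken as Cd3e-positive cells with a UMI of the gamma delta receptor constant gene Trdc (255 and 234) or of the alpha beta receptor constant gene Trac (186 and 112). The 48 and 59 cells with both Ncr1 and Ccr6 counted in both classes, as did the 23 and 13 with both Trdc and Trac. The libraries shared 29 barcodes, 25 of them among kept cells. Levels below are CPM, the gene's UMIs scaled to the total UMIs of the class.

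Il23r, whose reporter the sort used, was present in every class, between 102 and 261 CPM. In CD3-negative cells, Trdc stood at 3.58 and 1.87 CPM in the unstimulated and stimulated library and Trac at 1.88 and 1.52 CPM. The other T cell receptor constant genes were far more abundant there, Trbc1 at 246 and 204 CPM and Trbc2 at 229 and 157 CPM. With cells holding a UMI of any of these 4 genes left out, the Prdm1 log2 ratio in CD3-negative cells was 2.71, against 2.69 with them. Markers of other cell types that use these repressors were present. The 6 myeloid markers together came to 9.57 CPM in unstimulated and 7.26 CPM in stimulated CD3-negative cells. The 5 plasma cell markers, which include the abundant immunoglobulin transcripts, summed to 1635 and 479 CPM. They varied between classes, at 2440 and 8.27 CPM in Ncr1+ and 41.7 and 2112 CPM in Ccr6+ cells. Cells with markers of B, plasma or myeloid cells were 0.625% and 0.618% of CD3-negative cells, and ratios without them are given beside the results.

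The 3 genes lie on different chromosomes of mouse build GRCm38. Prdm1 (ENSMUSG00000038151) spans chromosome 10 from 44437177 to 44528501 on the minus strand, Bcl6 (ENSMUSG00000022508) chromosome 16 from 23965052 to 23988852 on the minus strand, and Bach2 (ENSMUSG00000040270) chromosome 4 from 32238804 to 32586108 on the plus strand. In GENCODE M21, Bcl6 overlaps the gene Gm37419 on the opposite strand, and Bach2 overlaps Bach2it1 on its own strand and Bach2os on the opposite one. All 3 of these neighbours have rows of their own in the feature tables, and the sources used here do not say whether counting used strand. The levels of Bcl6 and Bach2 are uncertain to that extent.

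The RefSeq windows of 250 bases before a transcription start of each gene are printed because the 3 repressors are known to act on one another's genes and the levels of Prdm1 and Bach2 differ in how they stand between the libraries. They are written 5′ to 3′ on the gene's strand in GRCm38.p6 coordinates, with matches of the searched motifs in capitals. The Prdm1 window is chr10:44458749-44458998 and the Bach2 window is chr4:32417185-32417434. Both lie inside the GENCODE span of their gene, next to an internal transcript start. For Bcl6, RefSeq gives the windows chr16:23988853-23989102, next to the gene's 5′ end, and chr16:23981284-23981533, inside it.
Prdm1: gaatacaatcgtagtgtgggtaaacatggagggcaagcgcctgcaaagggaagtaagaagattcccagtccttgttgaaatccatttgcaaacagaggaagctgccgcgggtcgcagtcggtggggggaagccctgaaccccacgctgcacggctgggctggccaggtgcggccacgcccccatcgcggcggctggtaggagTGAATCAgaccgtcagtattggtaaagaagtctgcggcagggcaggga
Bcl6, first window: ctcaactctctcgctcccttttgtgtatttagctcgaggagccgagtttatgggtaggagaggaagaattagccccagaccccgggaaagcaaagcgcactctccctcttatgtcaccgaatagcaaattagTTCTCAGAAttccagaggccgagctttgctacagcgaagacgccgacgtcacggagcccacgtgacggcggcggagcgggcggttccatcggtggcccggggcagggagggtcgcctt
Bcl6, second window: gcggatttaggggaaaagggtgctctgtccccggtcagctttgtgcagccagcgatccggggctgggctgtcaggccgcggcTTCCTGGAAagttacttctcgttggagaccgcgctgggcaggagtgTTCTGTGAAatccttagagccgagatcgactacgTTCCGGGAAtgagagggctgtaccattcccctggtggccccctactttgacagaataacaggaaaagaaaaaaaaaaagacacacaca
Bach2: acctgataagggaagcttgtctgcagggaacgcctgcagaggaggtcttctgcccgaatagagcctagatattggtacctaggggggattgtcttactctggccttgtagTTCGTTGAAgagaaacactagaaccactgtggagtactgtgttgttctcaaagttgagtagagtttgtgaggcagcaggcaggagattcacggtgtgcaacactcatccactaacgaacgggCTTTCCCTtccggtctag
Both strands were searched for 4 motifs in these windows and in all 32536 RefSeq windows of the same length. The STAT-type motif TTCNNNGAA, a form that BCL6 also recognises, occurred in 7.04% of all windows. It was found 1 time in the first Bcl6 window, 3 times in the second and 1 time in the Bach2 window, and not in the Prdm1 window. The AP-1-type motif TGANTCA, searched with any base at N and held by 6.73% of windows, was found 1 time, in the Prdm1 window as TGAATCA, with A at N. The Maf recognition element core, a longer form read by BACH proteins with small Maf partners, contains the AP-1-type motif, was in 0.357% of windows and had no match in these 4. The Blimp-1-type motif AGNGAAAG, held by 7.29% of windows, was found in the Bach2 window on the reverse strand. A match shows letters in a window, not binding.

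Prdm1 was at least 1.5-fold higher in the stimulated library in all 5 classes, while Bach2 did not differ by 1.5-fold in any class. Unmeasured Bcl6 in Trdc+ cells, at 5 and 3 UMIs, was 1.64-fold lower. In CD3-negative cells the unstimulated library held 13.5 CPM (12.5 to 14.5, 720 UMIs) and the stimulated library 87.1 CPM (84.7 to 89.6, 4883 UMIs), 6.44-fold higher (log2 ratio 2.69, 2.58 to 2.80). Of the 6996 genes measured in these cells (10 CPM or more in either library, with 20 or more UMIs summed), 3.96% were at least 1.5-fold higher and 3.57% at least 1.5-fold lower, and 11 had a higher ratio than Prdm1. That contrast is among the values the genes were chosen with, so the ratio is a description. Without cells that carry markers of B, plasma or myeloid cells the log2 ratio was 2.74. A sum over a class mixes the number of cells with the transcript and the amount per cell. The share of cells with a UMI and the mean UMIs in such cells are given further on. At so few UMIs per cell both rise with the mean level, so they do not separate number from amount.

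**Figure D1:**
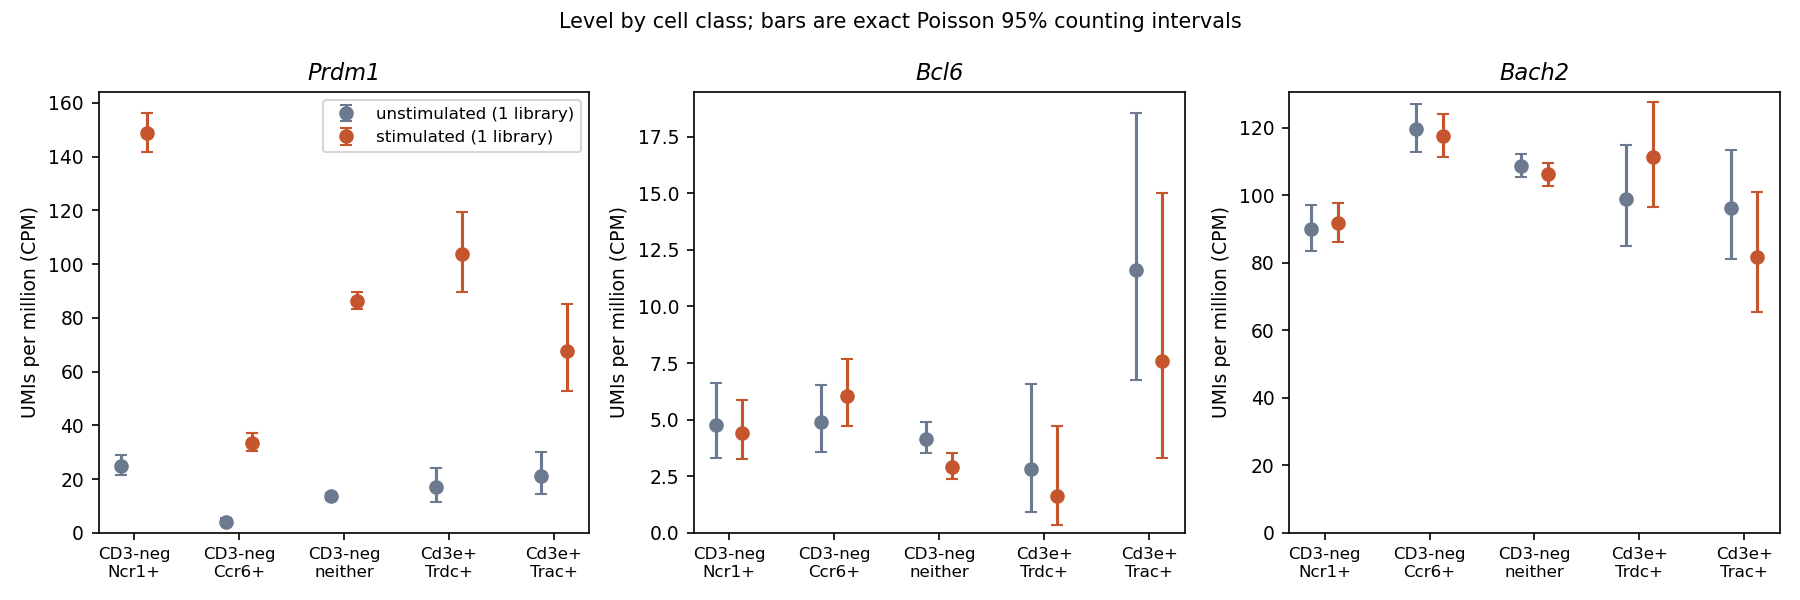
Level of Prdm1, Bcl6 and Bach2 in CPM (vertical axes from 0) in the 5 cell classes (horizontal axis), with 1 point per library and exact Poisson 95% intervals. Stimulated Prdm1 lies above unstimulated Prdm1 in every class, from 33.6 CPM in Ccr6+ to 149 CPM in Ncr1+ cells, while the Bach2 intervals of the libraries overlap in every class.

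Among the classes, Prdm1 was highest in Ncr1+ and lowest in Ccr6+ CD3-negative cells, before and after IL-23. The unstimulated interval of Ncr1+ cells overlapped those of both T cell classes. Ncr1+ cells held 25.0 CPM (21.5 to 28.9) before IL-23 and 149 CPM (142 to 156) after, 5.94-fold higher. Ccr6+ cells held 4.14 CPM (2.94 to 5.65) and 33.6 CPM (30.3 to 37.1), 8.03-fold higher from the lowest baseline, with 39 unstimulated UMIs. In this class Prdm1 passed the 10 CPM limit through the stimulated library alone. Cells with neither gene held 13.5 CPM (12.4 to 14.8) and 86.4 CPM (83.3 to 89.5), 6.37-fold higher. Of all measured genes, 5.05% were 1.5-fold or more higher and 6.95% lower in Ncr1+ cells, 2.86% and 4.28% in Ccr6+ cells, and 4.09% and 3.89% in cells with neither. When cells with both Ncr1 and Ccr6 were left out, Prdm1 was 6.61-fold higher in Ncr1+ than in Ccr6+ cells of the unstimulated library (log2 ratio 2.73, 2.21 to 3.31) and 5.31-fold higher in the stimulated one (2.41, 2.23 to 2.59).

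T cells carried Prdm1 at levels between those of the Ccr6+ and Ncr1+ classes. Trdc+ cells held 16.9 CPM (11.4 to 24.1) before and 104 CPM (89.5 to 119) after IL-23, 6.06-fold higher, where 7.14% of measured genes were 1.5-fold or more higher and 10.7% lower. Trac+ cells held 21.1 CPM (14.4 to 30.0) and 67.5 CPM (52.7 to 85.2), 3.17-fold higher, where 7.19% were higher and 12.3% lower. The log2 ratio in Trac+ cells, 1.66 (1.05 to 2.33), was the smallest of the 5 and rests on 31 and 71 UMIs. Its interval overlaps that of the Trdc+ cells (2.06 to 3.23) but not those of the Ncr1+ (2.35 to 2.80), Ccr6+ (2.55 to 3.54) or neither (2.54 to 2.81) cells. Without cells that carry markers of other types the Prdm1 log2 ratio was 2.66 in Ncr1+ and 2.97 in Ccr6+ cells. Whether the classes respond unequally was not tested.

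Both the share of cells with Prdm1 and the number of UMIs in such cells were higher after IL-23. A Prdm1 UMI was found in 556 of 10075 unstimulated CD3-negative cells, 5.52% (5.08 to 5.98), and in 2323 of 8583 stimulated ones, 27.1% (26.1 to 28.0). Among cells with a UMI the mean was 1.29 UMIs unstimulated and 2.10 stimulated, and 31 and 607 cells held 3 or more. Because stimulated cells were deeper (median 6021 against 4867 UMIs), each cell was also thinned at random to 3000 UMIs, which left out 774 and 576 shallower cells. The shares were then 3.39% (3.03 to 3.77) and 16.2% (15.4 to 17.0), and the means in cells with a UMI 1.13 and 1.38 UMIs. In Ncr1+ cells the thinned shares were 5.83% and 28.6%, in Ccr6+ cells 1.04% and 6.01%, in Trdc+ cells 4.76% and 25.8%, and in Trac+ cells 6.08% and 13.5%. No cell type that surely lacks Prdm1 was present in number, since myeloid-like cells (13 and 8) and plasma-like cells (7 and 2) are known to use it. The share in unstimulated Ccr6+ cells, 2.08% as counted at a median of 5032 UMIs, was the lowest of any class. In the stimulated library the lowest was again that of Ccr6+ cells, 13.3% as counted at a median of 6308 UMIs, and 69 of the 1189 removed stimulated barcodes (median 542 UMIs) also held Prdm1. How much of the shares is free RNA was not tested.

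Within each library, Prdm1 took a larger part of the RNA in cells with more UMIs when all CD3-negative cells were pooled. CD3-negative cells were divided by UMIs per cell into tertiles of nearly equal size. Unstimulated Prdm1 stood at 7.72 CPM (6.18 to 9.54) in the shallowest, 13.4 CPM (11.7 to 15.3) in the middle and 16.0 CPM (14.5 to 17.7) in the deepest tertile. In stimulated cells the levels were 38.2 CPM (34.7 to 42.0), 70.8 CPM (66.9 to 74.9) and 118 CPM (114 to 122). CPM already divides by depth, so a gene spread evenly over cells would give a flat line, as Bach2 did. The stimulated level was higher at every depth, 4.95-fold in the shallowest and 7.34-fold in the deepest tertile. Within stimulated Ncr1+ cells the level was 109, 162 and 159 CPM, and within Ccr6+ cells 10.8, 21.6 and 48.9 CPM. Within the unstimulated subsets the tertile intervals overlapped, at 22.7, 23.1 and 27.2 CPM in Ncr1+ and 3.50, 2.98 and 5.05 CPM in Ccr6+ cells. How much of the pooled rise comes from the mix of classes was not tested. The deepest stimulated Ccr6+ tertile had a median of 10783 UMIs. Without the 5% of cells with the most UMIs the log2 ratio in CD3-negative cells was 2.69.

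**Figure D2:**
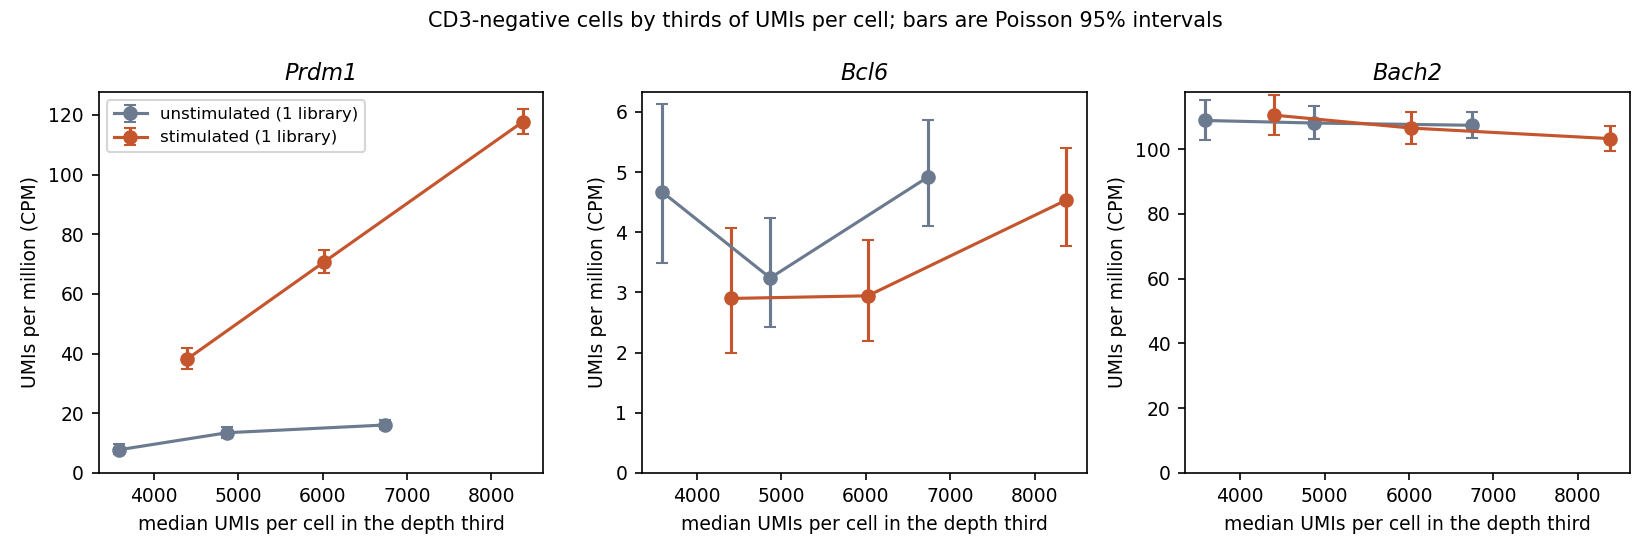
Level in CPM (vertical axes from 0) of the 3 genes in CD3-negative cells split into tertiles of UMIs per cell, placed at the median UMIs of each tertile, with Poisson 95% intervals. Prdm1 climbs from 38.2 to 118 CPM with depth in the stimulated library, whereas Bach2 stays between 103 and 110 CPM in both.

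Bach2 was at nearly the same level in both libraries. In CD3-negative cells the level was 108 CPM (105 to 111, 5750 UMIs) before and 106 CPM (103 to 108, 5928 UMIs) after IL-23. The log2 ratio was -0.03 (-0.08 to 0.02) and turned to 0.087 with TMM scaling, so it has no direction of its own. Without cells that carry markers of other types it was -0.03. Measured genes had a median log2 ratio of -0.11, and every ratio is 0.12 higher under TMM. In each of the 5 classes the interval of Bach2 held 0, with log2 ratios of 0.03 in Ncr1+, -0.03 in Ccr6+, -0.03 in neither, 0.17 in Trdc+ and -0.23 in Trac+ cells.

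The classes differed in Bach2 by less than in Prdm1, and with Ncr1+ below Ccr6+ cells. Between these gates, Ncr1+ cells held 90.1 CPM (83.3 to 97.2) before and 91.8 CPM (86.2 to 97.8) after IL-23. Ccr6+ cells held 120 CPM (113 to 127) and 118 CPM (111 to 124). With cells of both gates left out, the log2 ratio of Ncr1+ over Ccr6+ was -0.44 (-0.59 to -0.30) unstimulated and -0.38 (-0.51 to -0.26) stimulated. Stimulated Trdc+ cells held 111 CPM (96.5 to 127) and Trac+ cells 81.8 CPM (65.4 to 101). A Bach2 UMI was found in 35.7% (34.7 to 36.6) of unstimulated and 40.5% (39.4 to 41.5) of stimulated CD3-negative cells, but after thinning in 24.3% (23.4 to 25.1) and 25.4% (24.5 to 26.4). In plasma-like cells, which are known to silence Bach2, 2 of 7 unstimulated and 1 of 2 stimulated cells held a UMI, at medians of 24942 and 28216 UMIs per cell, too few for a background.

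Bcl6 RNA was scarce in all classes, and highest in unstimulated alpha beta T cells. In CD3-negative cells the level was 4.35 CPM (3.81 to 4.95, 232 UMIs) before and 3.71 CPM (3.22 to 4.25, 208 UMIs) after IL-23, with a log2 ratio of -0.23 (-0.51 to 0.05). It reached the 10 CPM needed to count as measured in 1 class, the Trac+ cells, where it stood at 11.6 CPM (6.75 to 18.6) and 7.61 CPM (3.29 to 15.0) from 17 and 8 UMIs, a log2 ratio of -0.56 (-2.03 to 0.68), just short of 1.5-fold. The ratio passed 1.5-fold with cells of both receptor genes left out (-0.60) and with gates at 2 UMIs (-1.14). With cells of both receptor genes left out, unstimulated Trac+ cells held 3.14-fold more than CD3-negative cells (log2 ratio 1.65, 0.81 to 2.32), and the stimulated ratio was 1.28 (-0.03 to 2.20). Trdc+ cells held 5 and 3 UMIs in all. The Ccr6+ cells held 4.88 CPM (3.57 to 6.51) and 6.06 CPM (4.73 to 7.66), and the cells with neither gate gene 4.16 CPM (3.53 to 4.87) and 2.92 CPM (2.38 to 3.55). In that last class the interval of the log2 ratio, -0.51 (-0.89 to -0.14), leaves out 0. A Bcl6 UMI was found in 2.09% and 2.13% of CD3-negative cells, and in 1.15% (0.944 to 1.39) and 0.862% (0.671 to 1.09) after thinning, a level near that of 1 UMI from which no change is read. In Trac+ cells the thinned shares were 3.87% (1.57 to 7.81) and 0.901% (0.0228 to 4.92), the latter from 1 cell. Without cells that carry markers of other types the log2 ratio in CD3-negative cells was -0.22.

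Prdm1 and Bach2 were seen in the same cells. Of the 2323 stimulated CD3-negative cells with a Prdm1 UMI, 965 held Bach2 but no Bcl6, 37 held Bcl6 but no Bach2, 31 held all 3 genes and 1290 held Prdm1 alone. After thinning, Prdm1 was found in 14.4% (12.9 to 16.1) of stimulated Bach2-positive cells and in 16.8% (15.9 to 17.8) of Bach2-negative ones. The unstimulated shares were 3.01% and 3.51%. The Bach2 level itself was 100 CPM (90.5 to 111) in stimulated cells with Prdm1 and 112 CPM (107 to 117) in those without, both thinned. In stimulated Ccr6+ cells Prdm1 was in 4.14% (2.43 to 6.54) of Bach2-positive and 6.73% (5.30 to 8.40) of Bach2-negative cells, and in Ncr1+ cells in 29.6% (24.3 to 35.3) and 28.4% (25.6 to 31.3). The intervals overlap within both subsets. For Bcl6 the overlap was too small to read, with 15 thinned stimulated cells holding both Bcl6 and Prdm1 where the product of the shares gives 11.2.

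Prdm1 was found more often in cells with Ctla4, the inhibitory receptor gene that was 11.3-fold higher in stimulated CD3-negative cells (15.5 and 176 CPM). As counted, 62 of 484 unstimulated Ctla4-positive cells held Prdm1, 12.8% (9.96 to 16.1), against 5.15% (4.72 to 5.61) of Ctla4-negative cells. In the stimulated library it was 1016 of 2122, 47.9%, against 20.2% (19.3 to 21.2). Thinned to equal depth, the stimulated shares were 29.3% (26.9 to 31.7) and 13.4% (12.5 to 14.2), a ratio of 2.19, where 418 cells held both genes and the product of the shares gives 231. Thinning does not remove the rise of both genes with depth, since Ctla4 also climbed over the stimulated tertiles (56.8, 128 and 255 CPM). Within the shallowest, middle and deepest tertile the ratio of shares, as counted, was 1.76, 2.21 and 1.61. Seen the other way, as counted, 43.7% of stimulated Prdm1-positive and 17.7% of Prdm1-negative cells held Ctla4.

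By class the ratios ranged widely, and their differences were not tested. In stimulated Ncr1+ cells, thinned, Prdm1 was in 31.3% (27.1 to 35.7) of Ctla4-positive and 27.1% (24.1 to 30.3) of Ctla4-negative cells, a ratio of 1.15 with overlapping intervals. In Ccr6+ cells it was in 12 of 91 Ctla4-positive cells, 13.2%, and in 5.54% (4.40 to 6.88) of the rest. Among cells with neither gate gene the shares were 29.6% (26.6 to 32.8) and 13.4% (12.4 to 14.4), a ratio of 2.21. In stimulated Trdc+ cells 43 of 137 Ctla4-positive and 16 of 92 Ctla4-negative cells held Prdm1. Stimulated Trac+ cells showed little gap, with 7 of 53 cells with Ctla4 alone, 4 of 23 with Ctla4 and Il17a and 4 of 29 with neither. Thinned Ctla4-positive cells were 470 of 1282 Ncr1+ and 91 of 1481 Ccr6+ cells, so the pooled ratio also holds the difference between these subsets. Because a cell can miss its gate at low depth, the ratio in cells with neither gate gene may hold it too, which was not tested.

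Il17a, the cytokine gene of type 17 lymphocytes that was 12.1-fold higher after IL-23 (25.3 and 306 CPM in CD3-negative cells), was paired with Prdm1 less often in the pooled cells. Thinned, Prdm1 was in 12.6% (10.9 to 14.4) of Il17a-positive and 17.0% (16.1 to 17.9) of Il17a-negative stimulated cells, a ratio of 0.74. Within the shallowest, middle and deepest tertile of UMIs per cell the ratio, as counted, was 0.92, 0.57 and 0.85, with overlapping intervals of the shares in the shallowest. Cells with neither gate gene had the same order (12.9%, 10.8 to 15.1, against 16.8%, 15.7 to 18.0). The gated subsets did not share it, with ratios of 1.12 in Ncr1+ cells (31.9%, 22.5 to 42.5, against 28.4%, 25.8 to 31.0) and 1.26 in Ccr6+ cells (7.14%, 4.68 to 10.4, against 5.66%, 4.38 to 7.17). The intervals of the shares overlap in both gated subsets. Among thinned stimulated T cells, Il17a without Ctla4 was in 13 Trdc+ and 6 Trac+ cells, of which 1 and 0 held Prdm1, too few to read. Thinned Il17a-positive cells were 350 of 1481 Ccr6+ cells, 91 of 1282 Ncr1+ cells and 988 of 5302 cells with neither. By level, Il17a was at 345 CPM (327 to 364) in stimulated cells with Prdm1 and 309 CPM (302 to 317) in cells without, the opposite order to the shares, so no pooled order is read. In stimulated Ccr6+ cells the gap in level was wider, at 1022 CPM (905 to 1151) in the 89 thinned cells with Prdm1 and 360 CPM (342 to 379) in the 1392 without. The 273 Il17a UMIs behind the 1022 CPM came from few cells, 20 with Il17a but no Ctla4 and 5 with both. The interval counts UMIs and does not cover the spread between those cells. In Ncr1+ cells the levels were 104 CPM (85.4 to 124) and 108 CPM (95.9 to 121). Unthinned Prdm1 in stimulated Ccr6+ cells was at 34.1 CPM (28.2 to 40.8) with Il17a alone and 21.6 CPM (18.0 to 25.6) with neither Il17a nor Ctla4, and after thinning these intervals overlapped, at 24.0 CPM (15.4 to 35.7) and 21.8 CPM (16.9 to 27.5). In the unstimulated library 10 thinned cells held both genes where the product of the shares gives 13.6.

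Prdm1 was found at overlapping shares in cells with both effector genes and in cells with Ctla4 alone. Thinned stimulated CD3-negative cells held Prdm1 in 14.0% (13.1 to 15.0) of cells with neither gene, 29.3% (26.8 to 31.9) with Ctla4 alone, 10.6% (8.94 to 12.4) with Il17a alone and 29.2% (22.2 to 37.1) with both, the last from 154 cells. In CPM, unthinned, these groups stood at 67.3 (64.4 to 70.4), 149 (143 to 156), 49.3 (45.1 to 53.7) and 129 (116 to 142).

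**Figure D3:**
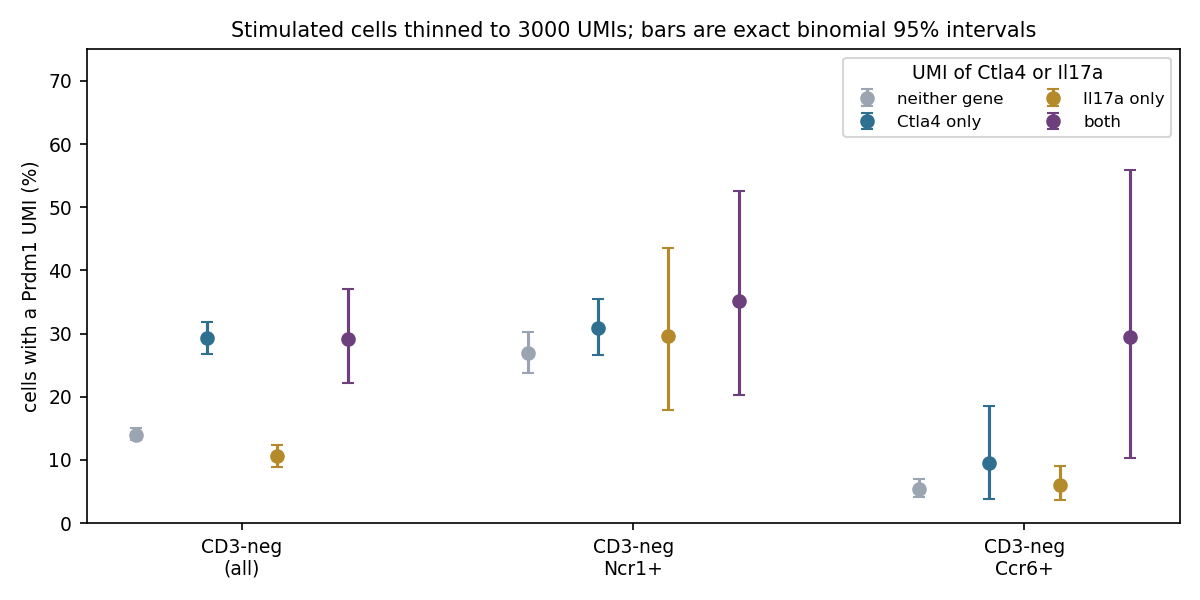
Percent of stimulated cells with a Prdm1 UMI (vertical axis from 0) after thinning to 3000 UMIs, by whether the cell held Ctla4, Il17a, both or neither, in all CD3-negative cells and in the Ncr1+ and Ccr6+ classes, with exact binomial 95% intervals. In all CD3-negative cells the Ctla4 groups sit near 29% and the Il17a-only group at 10.6%, while in Ncr1+ cells all 4 intervals overlap.

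Of the other partner genes, the costimulatory receptor gene Icos stood out in the pooled cells. Thinned, Prdm1 was in 20.4% (19.4 to 21.5) of Icos-positive and 5.50% (4.60 to 6.51) of Icos-negative stimulated CD3-negative cells. The same order held in Ncr1+ cells (29.6% against 18.8%) and Ccr6+ cells (8.46%, 6.64 to 10.6, against 3.01%, 1.85 to 4.61). By level, Icos was at 1579 CPM in pooled stimulated cells with Prdm1 and 840 CPM in those without. The gap was narrower in Ncr1+ cells, at 1722 and 1415 CPM, but not in Ccr6+ cells, at 948 and 436 CPM. Cells with Batf, the AP-1 family factor, held Prdm1 in 18.7% against 10.7%, and within Ncr1+ cells in 32.4% (29.4 to 35.5) against 18.2% (14.2 to 22.7). Ifng, the type 1 cytokine gene, was at 39.1 CPM (33.1 to 45.8) in stimulated cells with Prdm1 and 8.05 CPM (6.86 to 9.39) in cells without, and the granzyme gene Gzma at 40.1 and 16.5 CPM. Tcf7, which encodes the memory and progenitor factor TCF-1, went the other way, at 64.8 CPM (57.0 to 73.3) with Prdm1 and 103 CPM (98.4 to 107) without. These pooled gaps hold differences between the classes. Within stimulated Ncr1+ cells Tcf7 was at 67.2 CPM (52.8 to 84.4) with Prdm1 and 82.0 CPM (71.6 to 93.4) without, and Gzma at 63.6 CPM (49.6 to 80.3) and 46.6 CPM (38.9 to 55.4), with overlapping intervals. Tcf7 in Ccr6+ cells overlapped as well, at 93.6 CPM (60.6 to 138) and 137 CPM (126 to 148). Ifng in Ncr1+ cells did not, at 69.0 CPM (54.4 to 86.4) and 27.0 CPM (21.2 to 33.8). Il22 before stimulation was at 6096 CPM in cells with Prdm1 and 5900 CPM in cells without, and after it at 31060 and 24214 CPM. Il10, which Blimp-1 is linked to in T cells, had no UMI in thinned cells with Prdm1 (315 unstimulated and 1297 stimulated cells), while 1 and 4 cells held both genes as counted. Thinned cells without Prdm1 (8986 and 6710) held only 48 and 12 Il10 UMIs, too few to read the absence.

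**Figure D4:**
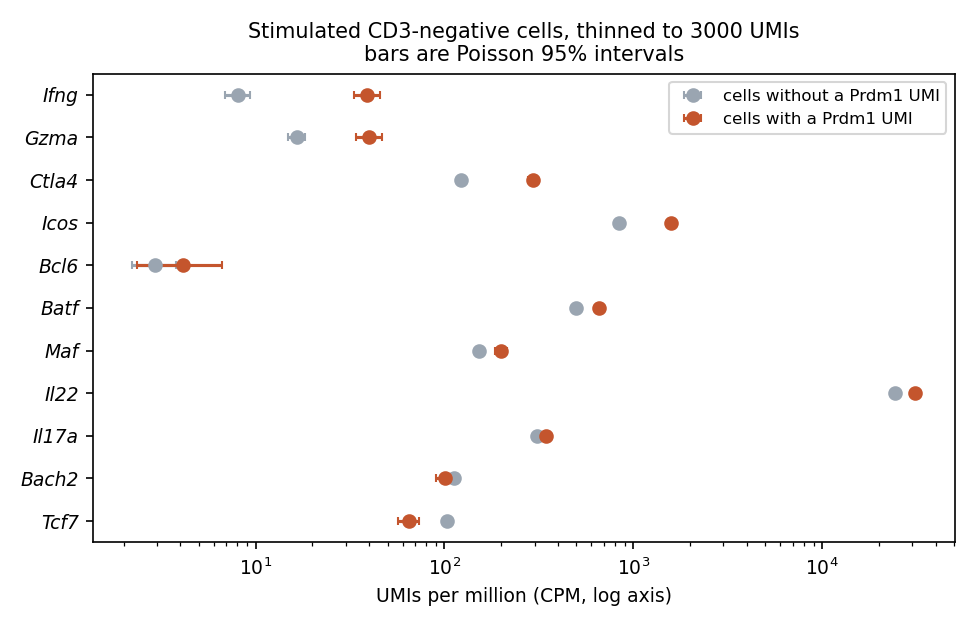
Level in CPM (log axis) of 11 partner genes in stimulated CD3-negative cells with and without a Prdm1 UMI, thinned to 3000 UMIs, with Poisson 95% intervals. Ifng, Gzma, Ctla4 and Icos lie to the right in cells with Prdm1, and Tcf7 lies to the left (64.8 against 103 CPM).

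The genes around the 3 repressors were listed by role and counted in CD3-negative cells, where the background was 3.96% higher and 3.57% lower. Of 10 factors known to induce Blimp-1, 9 were measured, and 2 passed 1.5-fold upwards and 0 downwards (median log2 ratio 0.50). Batf was at 29.9 and 525 CPM and Jund at 392 and 936 CPM, while Stat3, the main transcription factor downstream of the IL-23 receptor, was at 655 and 927 CPM (1.41-fold). With TMM scaling 5 of the 9 passed 1.5-fold. Irf4, a main inducer of Blimp-1 in B cells, was under the measuring limit at 1.48 and 5.74 CPM. Blimp-1 cofactors such as the histone deacetylase gene Hdac1 (100 and 97.9 CPM) had 5 of 7 measured and 0 past 1.5-fold in either direction, and the homologous repressor gene Zfp683 (Hobit) had 0 UMIs in both libraries.

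Genes that Blimp-1 is known to repress in other lymphocytes stood in both directions. Of 13 listed, Bcl6 and Bach2 among them, 6 were measured, 3 of these 1.5-fold or more higher and 0 lower, but the 10 CPM limit shaped that count. Myc (5.16 and 25.4 CPM) and Ifng (2.50 and 15.6 CPM) passed it through the stimulated library alone, while the follicular chemokine receptor gene Cxcr5 (16.3 and 24.9 CPM) passed in both. Ccr7, the lymph node homing receptor gene, stayed just under the limit at 9.40 and 5.83 CPM, 1.61-fold lower. Tcf7 was at 114 and 93.7 CPM. Of 11 effector genes linked to Blimp-1 in T cells, 4 were measured: 3 were higher (Ctla4, Gzma at 0.788 and 22.8 CPM, and Gzmb at 28.6 and 47.7 CPM), 0 lower and 1 between, the inhibitory receptor gene Pdcd1 at 81.6 and 57.2 CPM. Gzma passed the limit through the stimulated library alone, and genes that stood lower were left under it. Il10 was at 2.33 CPM (124 UMIs) and 0.446 CPM (25 UMIs), 5.14-fold lower, and the inhibitory receptor gene Havcr2 at 1.97 and 1.21 CPM, 1.62-fold lower. Of 9 BCL6 corepressors, 8 were measured and 0 were past 1.5-fold in either direction (median -0.17), with Ncor1, the most abundant, at 537 and 450 CPM. Of 11 genes that BCL6 is known to repress, all measured, 1 is Prdm1 itself, whose values chose it. Of the others, the egress receptor gene S1pr1 was higher (14.0 and 25.6 CPM), Gata3 was lower (57.1 and 33.6 CPM) and 8 were between.

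Partners and kin of BACH2 split. Of 6 measured, 1 was higher (its paralogue Bach1, 23.7 and 39.6 CPM), 1 lower (Nfe2l1, a relative of the antioxidant factor NRF2, 152 and 81.1 CPM) and 4 between, among them the small Maf genes Maff (103 and 141 CPM), Mafg and Mafk (median 0.12). Of 8 antioxidant genes with BACH sites, 5 were measured: 2 were higher, Txnrd1 (thioredoxin reductase, 361 and 735 CPM) and Hmox1 (heme oxygenase, 5.63 and 10.4 CPM), and 3 were between, the ferritin gene Fth1 among them at 5167 and 4959 CPM. Hmox1 passed the limit through the stimulated library alone.

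The pattern of Prdm1 over the 10 class and library values was most like that of Stk17b, a kinase gene, with Pearson r = 0.985 over log2(CPM + 10), followed by Ssh2 (0.969), St3gal6 (0.963), Spred2 (0.958) and Mlec, out of 3965 genes with at least 50 CPM in 1 or more of the values. Stk17b ranged from 313 to 1069 CPM. For Bach2 the closest was Palld (0.961), at 20.4 CPM in unstimulated Ncr1+ and 206 CPM in unstimulated Ccr6+ cells, then Mir142hg (0.942), Cd2ap (0.937), Sppl2a (0.932) and Mrpl20 (0.928). For Bcl6 it was Gng2 (0.910), then Itpr1 (0.895), Eea1 (0.887), Senp1 (0.882) and Pym1 (0.876). These 10 points share 2 libraries, and some cells sit in more than 1 class, so the r values only rank likeness.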

How the data were processed

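Droplet data of 2 libraries were analysed from deposited counts. Per the file headers, the authors deposited whole-number UMI counts per gene and barcode, made with cellranger 6.0.0, while the submitters' processing notes name Cell Ranger 3.1.0 and build mm10. Which of these made the matrices was not settled, and the sources name no annotation or cell-calling step. Barcodes passed with 500 or more genes and mitochondrial UMIs up to 10%. Classes came from UMIs of Cd3e, Cd3d, Cd3g, Ncr1, Ccr6, Trdc and Trac (1 or more), so a cell can miss its class at low depth. No doublet caller was run. Sums were scaled to the class total, and ratios had 0.5 UMI added. Intervals (95%) were exact Poisson for sums, conditional binomial for ratios and Clopper-Pearson for shares (scipy 1.17.1, Python 3.11.15, numpy 2.4.6, seed 7), and they cover counting error only. Thinning drew 3000 UMIs per cell. TMM came from edgeR 4.0.16. Positions came from GENCODE M21 (GRCm38) and promoter windows from RefSeq (all 3 symbols matched). The named genes are the members, the role lists, the co-detection partners and the 5 most alike genes per member. Members and lists were chosen with earlier results of these data known. The ratio script was tested on simulated data. The values of some lineage markers are not reported here.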

Additional observations from a re-analysis of the deposited data

Results flagged for a closer look

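Prdm1 also stood high in stimulated barcodes that the filters removed and that enter no comparison above. The 1189 such barcodes, with a median of 542 UMIs, held Prdm1 at 96.6 CPM (77.7 to 119, 90 UMIs), against 10.2 CPM (2.10 to 29.8, 3 UMIs) in the 306 removed from the unstimulated library (median 748 UMIs). Bach2 in the same barcodes was at 109 and 115 CPM.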

How the results depend on the processing

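The log2 ratio of Prdm1 in CD3-negative cells lay between 2.54 and 2.80 under 13 alternatives, the extremes being cells thinned to 3000 UMIs (2.54) and TMM scaling (2.80). Bcl6 stayed within its counting interval in all 13 (-0.40 to -0.11). Bach2 was 0.087 with TMM scaling, 0.081 with a median-ratio size factor and 0.050 after thinning, each a turn of sign at under 1.5-fold. The 42 class values under other gates, exclusive classes or without cells of other types stayed within their counting intervals. The share of Ctla4-positive stimulated cells with Prdm1 was 29.3% thinned to 3000 UMIs, 23.1% to 2000 and 45.3% without the 5% of cells with the most UMIs; that of Il17a-positive cells was 12.6%, 9.24% and 19.2%. Genes at least 1.5-fold higher numbered 3137 with no filter and 128 at 50 CPM. Lower genes numbered 3642 and 105, and 149 with TMM scaling and 150 with the median-ratio factor, against 250, so the split of higher against lower calls depends on scaling (277 and 250 by CPM, 352 and 149 by TMM). Leaving out the barcodes shared by both libraries and the deepest 5% for co-detection were chosen after seeing the data. Depth limits Bcl6 most, with 208 stimulated UMIs. No paired analysis was possible because each group is 1 library with no replicate number.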

Other observations

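Some kept cells fell outside the 5 classes. Cells with Cd3e but neither Trdc nor Trac (77 unstimulated and 97 stimulated) held Prdm1 at 26.8 CPM (14.3 to 45.9) and 104 CPM (81.9 to 131), and cells with Cd3d or Cd3g but no Cd3e (220 and 238) at 10.7 CPM (5.84 to 17.9) and 96.3 CPM (82.4 to 112). Their Bach2 levels lay between 90.2 and 97.0 CPM. The cells with both Ncr1 and Ccr6, at medians of 9802.5 and 12243 UMIs, held Prdm1 at 8.21 CPM (2.24 to 21.0) and 108 CPM (85.6 to 135). In these double-positive cells stimulated Bcl6 stood at 13.7 CPM (6.56 to 25.2) from 10 UMIs in 8 of 59 cells, against 3.71 CPM in all CD3-negative cells.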
